A study of Danio rerio with 3 samples.

Results

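The genes fzd9b (ENSDARG00000014673), apcdd1l (ENSDARG00000075557) and csnk1a1 (ENSDARG00000052674) are 3 of the 16023 gene rows found over the tables of 3 wild-type zebrafish hearts. They were chosen by name, from the Wnt pathway genes that the paper names for the atrium or for the region around the pacemaker, and each has a row in every heart. Another of these, the receptor gene FZD2, is given with the other genes of the pathway. The section range named there for these genes is that of heart 1, so the pattern of heart 1 is given here as a description, and hearts 2 and 3 are also tested without it. Earlier results of all 3 hearts were known when the genes were chosen. The hearts came from embryos of the TL strain at 48 hours post fertilization, were dissected and straightened, and were cut into 10 µm sections from one pole to the other. RNA of each section got its own barcode and was sequenced from the 3′ end (tomo-seq). There was no treated or mutant group, and the comparisons are between regions of the same hearts.

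Wnt ligands bind Frizzled receptors at the cell surface, and in the canonical branch this stops the breakdown of beta-catenin, which then enters the nucleus and switches on target genes. Without a ligand, a destruction complex tags beta-catenin for breakdown. In the embryonic heart the pathway is known for its part in the valve-forming AV canal and in the pacemaker region at the venous pole. The gene fzd9b encodes a Frizzled receptor. The product of apcdd1l is related to APCDD1, a membrane protein that inhibits Wnt signaling at the cell surface. The gene csnk1a1 encodes casein kinase 1 alpha, which in the destruction complex adds the first phosphate to beta-catenin.

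Along heart 1 the regions were the sinoatrial (SA) region in sections 33 to 39, the atrium proper in 27 to 32, the AV canal in 19 to 26, the ventricle proper in 12 to 18 and the arterial pole in 2 to 11, with sections 40 to 41 as the venous end. Hearts 2 and 3 were placed on this scale by a straight line through the middle sections of vmhc, a myosin gene of the ventricle, and myh6, one of the atrium. Hearts 1, 2 and 3 had 40, 48 and 29 sections and 5889097, 5243516 and 2590278 gene reads. Depth was uneven, and 7, 9 and 13 sections held under 10000 gene reads and are called shallow. The SA region had 381483, 292171 and 57203 gene reads, and the atrium proper had 436585, 108981 and 398990. In heart 2 the atrium proper held the fewest gene reads of any region. Heart muscle markers gave 154, 66.7 and 91.4 of 10000 gene reads in the SA region and 183, 192 and 307 in the atrium proper, so muscle was present in both. The arterial pole gave 15.7 and 5.89 in hearts 1 and 2 but 467 in heart 3. In that heart the name therefore marks a position on the scale and not tissue poor in muscle. Pacemaker markers were read at 3.43 and 4.0 per 10000 in the SA region of hearts 1 and 2, and at 0 in that of heart 3. In heart 3 the name SA region therefore also rests on position alone. In whole sections, fewer cells of a type and less RNA per cell cannot be told apart. A level below is a number of reads per 10000 gene reads, and its 95% Wilson limits cover counting error only. Where no read was found, the level allowed is that of 3 reads. A fold given as "at least" sets the measured level of the other region against that allowed level. It leaves out the counting error of the measured level and is not a strict limit. Whether identical reads were collapsed by molecular barcodes is not given in the sources used here, so reads need not be independent molecules.

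The receptor gene fzd9b was scarce, and its reads did not lie in the same region of each heart. Hearts 1, 2 and 3 had 32, 118 and 58 reads of it, and these came from 5 of 40, 10 of 48 and 3 of 29 sections. In the SA region 18, 11 and 0 reads were found. In the atrium proper the numbers were 0, 16 and 50. With these borders heart 1 had reads in the SA region and none in the atrium proper, heart 3 had the opposite, and heart 2 had reads in both.

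As levels, fzd9b gave 0.472 per 10000 (limits 0.298 to 0.746) in the SA region of heart 1 and 0.376 (0.210 to 0.674) in that of heart 2. The 0 reads in the SA region of heart 3 allow a level of up to 0.524, which is as high as the level in either of the others. In the atrium proper, the 0 reads of heart 1 allow up to 0.0687, while hearts 2 and 3 gave 1.47 (0.904 to 2.38) and 1.25 (0.951 to 1.65). The SA level was at least 6.87-fold higher than the atrial level in heart 1, was 0.256 of it in heart 2, and was at least 2.39-fold lower in heart 3. The direction differed between the hearts. Borders moved by 1 section toward the inflow end put section 33 of heart 1 into the atrium proper, which left 8 reads in the SA region against 10 in the atrium proper, a ratio of 1.93. Placed by raw reads, heart 3 had 7 reads in the SA region, at 0.576 against 1.44 in the atrium proper, a ratio of 0.400. Without shallow sections the SA level of heart 2 was at least 16.0-fold lower than its atrial level.

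**Figure D1:**
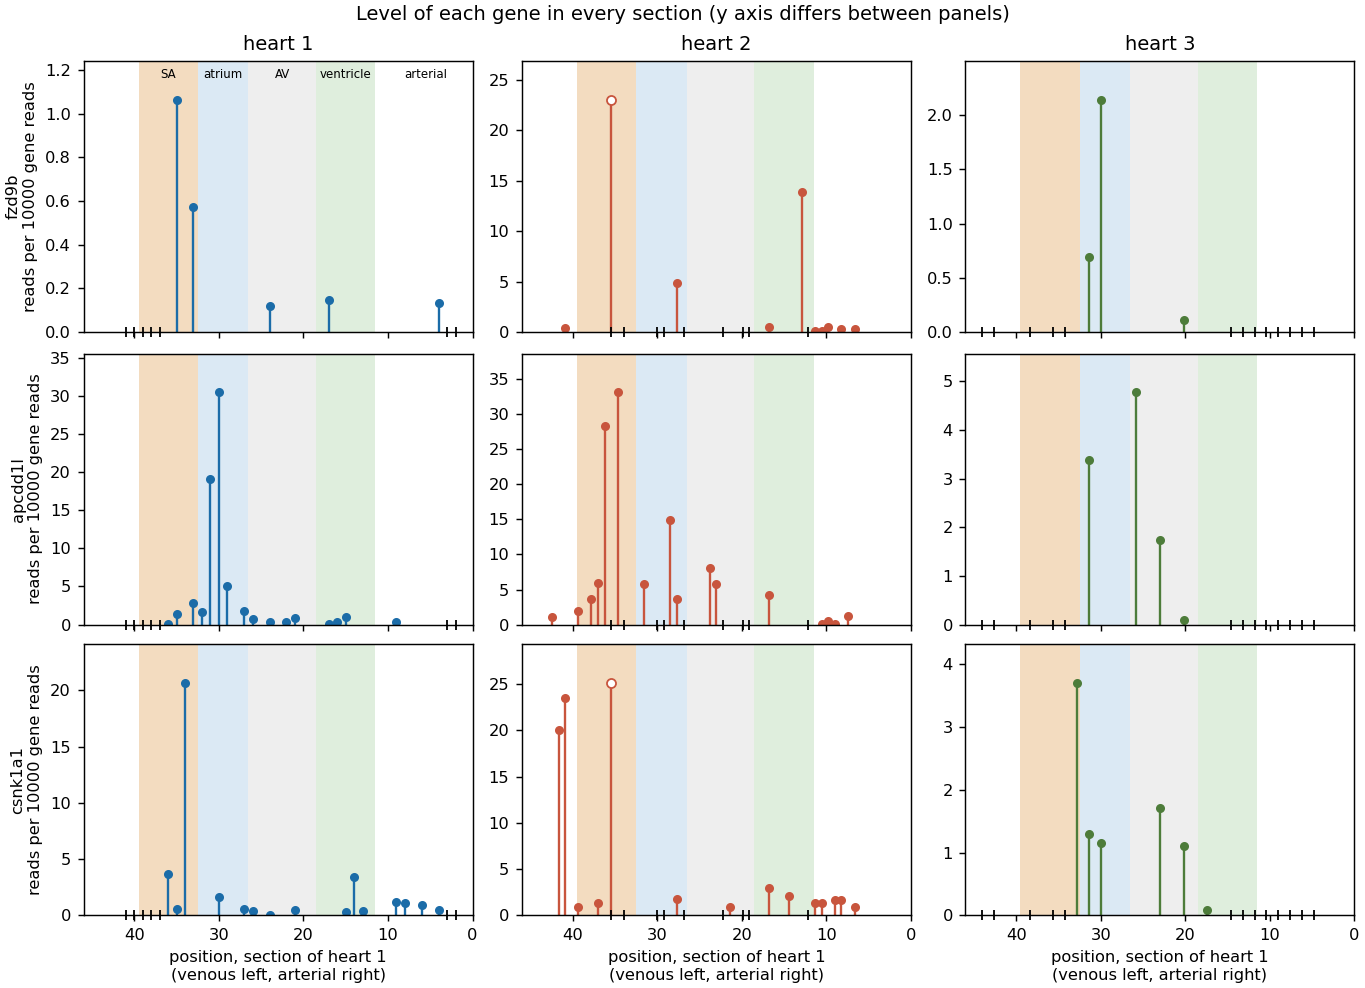
Reads per 10000 gene reads of fzd9b, apcdd1l and csnk1a1 in every section of the 3 hearts, by position on the section scale of heart 1 with the venous end on the left. Shading marks the SA region, atrium proper, AV canal and ventricle proper, filled circles are sections with at least 10000 gene reads, open circles are shallow sections with reads, and short black ticks mark shallow sections; fzd9b is seen in 5, 10 and 3 sections, and its tallest line in heart 2, at 23.03, is a shallow section.

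Single sections carried much of this. In heart 1 the SA reads of fzd9b came from section 33, with 10 reads, and section 35, with 8 reads, both well covered at 174992 and 75157 gene reads. In heart 2 all 11 SA reads came from section 58, which held only 4777 gene reads, so that its level of 23.03 rests on 1.64% of the gene reads of the region. Without that section the SA level of heart 2 was 0. All 16 atrial reads of heart 2 lay in section 68, with 33175 gene reads, and 43 of the 50 atrial reads of heart 3 lay in section 21, with 200704.

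Outside the SA region and the atrium proper, fzd9b was not absent. The ventricle proper had 4 reads in heart 1, 20 in heart 2 and none in heart 3, and the arterial pole had 7, 70 and none. The 0 reads in the ventricle proper of heart 3 allow up to 0.134. The arterial pole of heart 3 held only 14700 gene reads, all in 5 shallow sections, and its 0 reads allow up to 2.04. In heart 2 the arterial pole held most of the gene's reads. It also held 3988990 of the 5243516 gene reads, and its level was 0.175 (0.139 to 0.222). Among sections of heart 2 with at least 10000 gene reads the highest level of fzd9b, 13.9, was in section 87 of the ventricle proper, which gave 14 reads from 10060 gene reads, and without it the level of that region was 0.145 in place of 0.473. The AV canal gave 0.0153 in heart 1 and 0.0490 in heart 3, from 3 and 8 reads, and no read in heart 2. In order of level, heart 1 ran from the SA region down to regions whose limits overlap each other, and heart 2 ran from the atrium proper to the ventricle proper and the SA region, whose limits overlap.

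**Figure D2:**
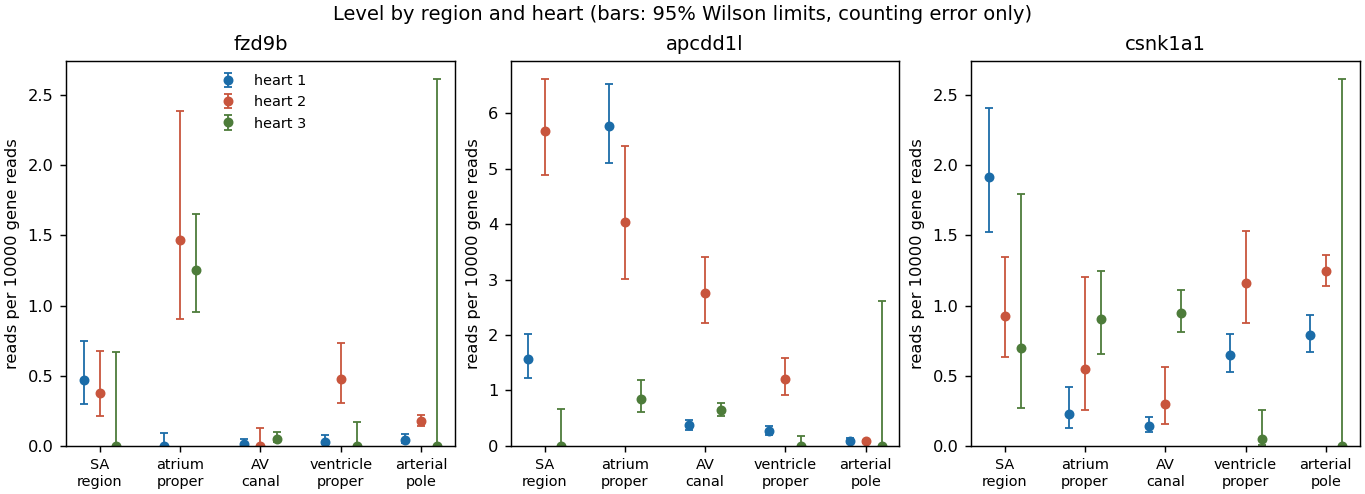
Reads per 10000 gene reads of the 3 genes in 5 regions from the venous to the arterial side, with 1 point per heart and 95% Wilson limits for counting error. The atrium proper is at 0 for fzd9b in heart 1 and at 1.47 and 1.25 in hearts 2 and 3, apcdd1l is highest in the SA region or the atrium proper, and csnk1a1 has no region that is highest in every heart.

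The inhibitor gene apcdd1l had a higher level in the atrium than in the ventricle of all 3 hearts, each taken as a window of sections. It had 435, 381 and 139 reads in hearts 1, 2 and 3, from 16 of 40, 16 of 48 and 4 of 29 sections. Over the atrium taken whole, which is sections 27 to 37 and includes part of the SA region, 312, 163 and 34 reads were found, against 82, 51 and 6 in the ventricle of sections 12 to 22, which takes in part of the AV canal. As levels this was 3.82 (3.42 to 4.27) in the atrium of heart 1 against 0.301 (0.243 to 0.374) in its ventricle. In heart 2 it was 7.64 (6.55 to 8.90) against 0.920 (0.700 to 1.21), and in heart 3 it was 0.760 (0.544 to 1.06) against 0.0450 (0.0206 to 0.0981). The limits did not overlap within any heart, and the atrium was 12.7-fold, 8.30-fold and 16.9-fold higher. These folds moved with the borders of hearts 2 and 3. Borders moved toward the inflow end gave 3.99-fold in heart 2 and 1.80-fold in heart 3, and placing these hearts by raw reads gave 29.7-fold and 1.73-fold. AV canal sections between the atrium and ventricle windows counted in neither. In heart 3 these held 77 reads in section 26 and 22 in section 24. Section 20 gave all 34 atrial reads of that heart, and section 28 gave all 6 ventricular reads. In heart 2 the sections between the windows held 56 reads in section 74 and 28 in section 73.

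Tested over the 3 hearts with a quasi-likelihood count model that keeps the heart as a block, apcdd1l was higher in the atrium by 3.26 ± 0.75 on the log2 scale (SE, n = 3 hearts, adjusted p = 0.00946). The paper named apcdd1l for the atrium from heart 1, which is in this fit, so the call alone is not independent evidence. The paper also showed the gene by in situ hybridization, as an example of an atrial gene. Of 4220 genes tested, 13 passed the threshold of 0.05 as higher in the atrium, which is 0.308% of them, and 39 as lower, which is 0.924%. The median of all tested genes was -0.57 on the log2 scale. With hearts 2 and 3 only, apcdd1l had a log2 difference of 3.07 ± 1.196 (SE, n = 2 hearts), and the adjusted p from the same model was 0.846, so the call was lost. Without heart 2 the log2 difference was 3.54 ± 1.104 and the adjusted p from that model was 0.255, and without heart 3 it was 3.10 ± 0.75 and 0.0264. Borders moved by 1 section toward the inflow end gave 1.80 with an adjusted p of 0.304 from that model, since 56 reads in section 74 of heart 2 and 77 reads in section 26 of heart 3, both at position 23, then counted as ventricle. The call was also lost with 4 other settings, namely spike-in scaling (1.74, adjusted p = 0.386), no filter on low counts (3.13, 0.0636), raw-read weights in placing hearts 2 and 3 (2.77, 0.280) and limma voom in place of the model (3.30, 0.105).

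**Figure D3:**
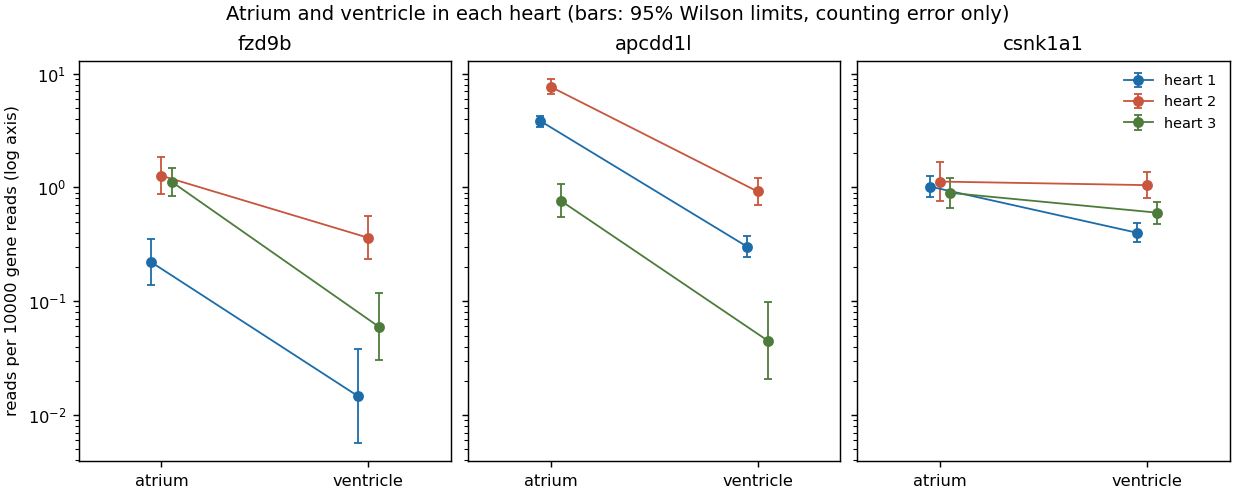
Reads per 10000 gene reads of the 3 genes in the atrium (sections 27 to 37) and the ventricle (sections 12 to 22) of each heart on a log axis, with 95% Wilson limits for counting error and a line joining the regions of a heart. For apcdd1l the atrium lies 12.7-fold, 8.30-fold and 16.9-fold above the ventricle in hearts 1, 2 and 3, while for csnk1a1 in heart 2 it lies 1.07-fold above.

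The highest level of apcdd1l in a single section lay in a different region of each heart. In heart 1 it was in the atrium proper, where sections 29, 30 and 31 gave 67, 76 and 80 reads, and the level reached 30.5 in section 30. In heart 2 it was in the SA region, with 41 reads in section 57 and 51 in section 59, and the level reached 33.1 in section 59. In heart 3 it was in the AV canal, where the level reached 4.77 in section 24. The SA region of that heart had no read, the atrium proper had 34, all in section 20, and the AV canal had 105, of which 77 lay in section 26. By region its atrium proper gave 0.852 and its AV canal 0.643, and these limits overlap. The middle of the level along the heart lay at position 30 in heart 1, 34.7 in heart 2 and 25.8 in heart 3.

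By region, apcdd1l gave 1.57 (1.22 to 2.02) in the SA region of heart 1 against 5.77 (5.10 to 6.53) in its atrium proper. In heart 2 the SA region gave 5.68 (4.88 to 6.61) and the atrium proper 4.04 (3.01 to 5.42), and these limits overlap. In heart 3 the SA region had 0 reads, which allows up to 0.524, against 0.852 (0.610 to 1.19) in the atrium proper. The Wilson limits of that SA region reach 0.672, so the limits overlap in heart 3 too. The SA level of apcdd1l was 0.272 of the atrial level in heart 1 and 1.41-fold the atrial level in heart 2. In heart 3 it was 1.62-fold lower when set at the 0.524 that 0 reads allow. In heart 3 this rested on which side of the border section 20 fell. Placed by raw reads, its 34 reads lay in the SA region, at 2.80 against 0 in the atrium proper, which was at least 27.8-fold higher, and without shallow sections the SA level was at least 1.09-fold lower. The AV canal followed, at 0.367, 2.75 and 0.643 in hearts 1, 2 and 3, and the ventricle proper gave 0.260, 1.21 and 0. The 0 reads in the ventricle proper of heart 3 allow up to 0.134.

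The reads of apcdd1l were spread over more sections than those of fzd9b in hearts 1 and 2. Leaving out its highest section lowered the level of the atrium proper of heart 1 to 4.28 and that of the SA region of heart 2 to 4.16. The SA region of heart 1 fell to 0.533 without section 33, which held 49 of its 60 reads, and the atrium proper of heart 2 to 2.42 without section 67. In heart 3 all 34 atrial reads were in 1 section, with 100650 gene reads, and without it the level was 0. In heart 2 the ventricle proper likewise rested on section 82, which held all of its 51 reads.

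**Figure D4:**
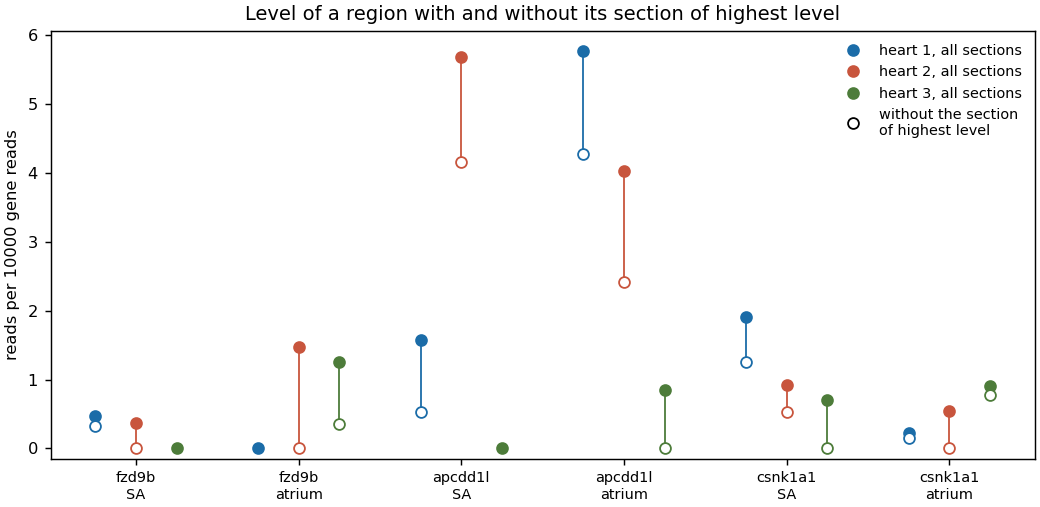
Reads per 10000 gene reads of the SA region and the atrium proper in each heart with all sections (filled) and without the section of highest level (open), for the 3 genes. In heart 2 the SA level of fzd9b is 0.376 with all sections and 0 without shallow section 58, while apcdd1l in the atrium proper of heart 1 stays at 4.28 without its highest section.

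The kinase gene csnk1a1 was read in every region except the venous end of hearts 1 and 3 and the arterial pole of heart 3, and no region was highest in all 3 hearts. The 0 reads in that arterial pole allow up to 2.04 per 10000, and those at the venous end up to 7.76 in heart 1 and 0.115 in heart 3. The gene had 337, 685 and 196 reads in hearts 1, 2 and 3, from 15 of 40, 14 of 48 and 6 of 29 sections. The SA region had 73, 27 and 4 of these reads, and the atrium proper had 10, 6 and 36. As levels, the SA region of heart 1 gave 1.91 (1.52 to 2.41) against 0.229 (0.124 to 0.422) in the atrium proper, an 8.35-fold difference. In heart 2 these were 0.924 (0.635 to 1.34) and 0.551 (0.252 to 1.20), and in heart 3 they were 0.699 (0.272 to 1.80) and 0.902 (0.652 to 1.25). The limits of SA region and atrium proper overlap in hearts 2 and 3.

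The SA level of csnk1a1 in heart 1 rested mainly on 2 sections. Section 36 gave 42 reads from 115540 gene reads, and section 34 gave 27 reads from 13081 gene reads, a level of 20.6. Without section 34 the SA level of heart 1 was 1.25. In heart 2 the shallow section 58, the same section that held the fzd9b reads, gave 12 of the 27 SA reads, and without it the level was 0.522. All 4 SA reads of heart 3 lay in section 19, which held 10810 gene reads.

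Most csnk1a1 reads lay elsewhere. The arterial pole had 136 reads in heart 1 and 497 in heart 2, at 0.791 (0.668 to 0.935) and 1.25 (1.14 to 1.36) per 10000. The AV canal had 155 of the 196 reads of heart 3, at 0.949 (0.811 to 1.11), but only 28 reads in heart 1 and 9 in heart 2. At the venous end of heart 2, sections 50 and 51 gave 43 and 54 reads and levels of 20.1 and 23.5. The venous end of that heart held heart muscle markers at only 4.24 of 10000 gene reads, and the part of tissue outside the heart in the csnk1a1 level was not tested. With raw-read weights in placing hearts 2 and 3, these sections fell in the SA region of heart 2. Its level was then 3.37 against 1.15 in the rest of that heart. The SA level was then above that of the atrium proper in every heart, by 8.35-fold, 7.76-fold and 1.82-fold. Against the rest of the heart it was 3.99-fold, 2.93-fold and 1.93-fold. The log2 difference from the atrium proper, 2.28 ± 1.46 (SE, n = 3 hearts), did not pass (adjusted p = 0.946 in the quasi-likelihood model). With borders moved toward the inflow end, the SA level of heart 3 was instead at least 4.24-fold lower than its atrial level. Over the whole atrium csnk1a1 gave 1.02, 1.12 and 0.894 in hearts 1, 2 and 3, against 0.400, 1.05 and 0.599 in the ventricle, or 2.54-fold, 1.07-fold and 1.49-fold. The limits were apart in heart 1 and overlapped in hearts 2 and 3. In heart 1, 73 of the 83 atrial reads lay in the SA region. Its atrium proper alone gave 0.229, below the 0.400 of the ventricle. In heart 3, section 28 of the AV canal gave 79 of the 80 ventricular reads, and the ventricle proper had 1 read. In heart 2 the ratio was 0.560 to 0.926 with borders moved either way, without shallow sections or with raw-read placing.

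None of the 3 genes passed the test between the SA region and the atrium proper. The background there was 0% of 2218 genes called, with 109 at an unadjusted p under 0.05 in the quasi-likelihood model and 1 called by limma voom. The log2 difference was -1.12 ± 2.01 for fzd9b, -1.78 ± 1.33 for apcdd1l and 1.01 ± 1.83 for csnk1a1 (SE, n = 3 hearts), with adjusted p of 0.977, 0.973 and 0.973 from that model. With hearts 2 and 3 only, the differences were -3.59, -1.88 and -0.01 and the adjusted p of each of the 3 genes from that model rounded to 1.00.

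None of the 3 genes passed between the SA region and all other sections of the heart either. The log2 difference was 0.39 ± 1.69 for fzd9b, 0.39 ± 1.44 for apcdd1l and -0.40 ± 1.50 for csnk1a1 (SE, n = 3 hearts), with adjusted p of 0.919, 0.907 and 0.892 from the quasi-likelihood model. Of 6225 genes tested 8 were called, or 0.129%, and all 8 were lower in the SA region. The median of all tested genes was -2.06, so each of the 3 genes lay above that median. The paper named fzd9b and csnk1a1 for this region from heart 1, which is in the fit. Their place above the median is therefore not independent evidence. For fzd9b the paper also reported expression in the SA region by in situ hybridization of whole embryos, which does not rest on these reads. The standing of the 3 genes against the median moved with the settings. With no filter on low counts the median was -0.62, and csnk1a1 lay below it at -0.68. Without heart 1 fzd9b was at -2.02 and the median at -1.79. Without heart 2 apcdd1l was at -2.01 and the median at -1.86. Heart by heart, fzd9b in the SA region was 18.6-fold the rest of heart 1 and 1.74-fold the rest of heart 2, apcdd1l was 2.31-fold and 13.1-fold, and csnk1a1 was 3.99-fold and 0.695-fold. The rest of heart 2 was mostly arterial pole, with 3988990 of its 4951345 gene reads. That pole gave heart muscle markers at 5.89 and apcdd1l at 0.0777 per 10000, against 4.04 for apcdd1l in the atrium proper. In heart 3 csnk1a1 was at 0.923 of the rest and both of the others had no SA read.

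Between the whole atrium and the ventricle, fzd9b was also higher in each heart but did not pass. The receptor gene gave 0.221, 1.27 and 1.12 per 10000 in the atrium of hearts 1, 2 and 3, against 0.0147, 0.361 and 0.0599 in the ventricle, which is 15.02-fold, 3.51-fold and 18.6-fold. With all sections the Wilson limits did not overlap in any heart, from 18 against 4 reads, 27 against 20 and 50 against 8. All 18 atrial reads of heart 1 lay in the SA region, and its atrium proper had 0. In heart 2, 11 of the 27 lay in shallow section 58 of the SA region. All 8 ventricular reads of heart 3 lay in section 28 of the AV canal. Without shallow sections heart 2 gave 16 against 20 reads, at 0.831 against 0.379 per 10000, or 2.19-fold. Both fzd9b and apcdd1l were higher in all 3 hearts after scaling by TMM factors, as were 10.8% of the genes tested. With spike-in scaling fzd9b was higher in 2 of the 3 hearts. Its log2 difference was then 1.47 ± 1.80 (SE, n = 3 hearts), beside a median of -2.10 over all genes tested. In the quasi-likelihood model fzd9b had a log2 difference of 2.98 ± 1.58 (SE, n = 3 hearts, adjusted p = 0.643), and 2.53 ± 2.49 with hearts 2 and 3 only (adjusted p = 1.00 in that model). The kinase gene csnk1a1 had 0.34 ± 1.11 (adjusted p = 0.948 in the same model), and -0.14 ± 1.95 with hearts 2 and 3 only.

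The 3 genes shared some of their sections. The receptor gene fzd9b shared 4 of its 5 sections of heart 1 with apcdd1l, 4 of its 10 in heart 2 and 2 of its 3 in heart 3. With csnk1a1 it shared 3 of 5, 8 of 10 and 3 of 3. All 3 genes were read together in 2, 3 and 2 sections of hearts 1, 2 and 3. Which genes are read in a section also moves with its depth, and the part of depth in these counts was not tested.

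The genes most like apcdd1l along the heart were ranked among 3802 rows with at least 50 reads in each heart. Over the 33, 39 and 16 sections with at least 10000 gene reads, the gene with the highest value of its lowest correlation was atp2a2a, the calcium pump of the sarcoplasmic reticulum of heart muscle, with Pearson r of 0.59, 0.55 and 0.42 in hearts 1, 2 and 3. The rows matched to human FHL2 and CRIP2, both LIM domain proteins, followed with a lowest r of 0.42 each, then a row with no symbol at 0.37 and the row matched to SYNPO2L, an actin-binding protein of muscle, at 0.35. These are descriptions, since sections of 1 heart share their library and differ in depth. The genes were picked as the top of this ranking, and what r unrelated genes would reach there was not tested. In heart 3 apcdd1l was read in only 4 sections. For csnk1a1 the highest lowest r was 0.27, which is too weak in such sparse counts to say anything, and fzd9b had under 50 reads in heart 1 and was not ranked. Between apcdd1l and csnk1a1, r was -0.01, -0.16 and 0.25.

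Among the other genes of the pathway, given with the human gene they match in capitals, apcdd1l was the only one past the test in any of the 3 comparisons over 3 hearts, and as a gene chosen with its pattern in these hearts known it is not independent evidence of a direction of its list. The list of inhibitors at the membrane or outside the cell had 13 rows, of which 3 could be tested between atrium and ventricle, and 1 of them, apcdd1l, was higher and none was lower. Its median log2 difference was 1.90, beside -0.57 over all genes tested. The list of receptors and co-receptors had 15 rows with 9 tested, and beta-catenin with its destruction complex had 17 rows with 10 tested. Dishevelled and nuclear factors had 11 rows with 5 tested, ligands with their secretion had 18 with 5, and targets had 7 with 2. None of these passed in either direction, and their medians were 0.51 for receptors, -0.42 for the destruction complex, -0.82 for Dishevelled and nuclear factors, -0.77 for ligands and -4.15 for targets.

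SFRP5, a secreted inhibitor that binds Wnt ligands, had the most reads of the inhibitor list, with 514, 3040 and 1329 in hearts 1, 2 and 3. Its level in the SA region was 1.76, 53.4 and 66.95 per 10000 in the 3 hearts, against 1.19, 5.14 and 4.24 in the atrium proper. In heart 3 all 383 of its SA reads came from 1 of the 5 sections there. It was higher in the SA region of every heart, with a log2 difference of 2.56 ± 0.78, and did not pass (SE, n = 3 hearts, adjusted p = 0.513 in the quasi-likelihood model), while 10.3% of the genes tested were higher there in all 3 hearts. The inhibitor WIF1 had 423 and 371 reads in hearts 1 and 2 and none in heart 3, and SOST had 100, 318 and none.

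The receptor rows with the most reads were a pair that both match FZD7 and may share reads. The larger had 1694, 2446 and 329 reads, and its level in the SA region was 2.80, 12.7 and 6.29, against 2.08, 0.551 and 0 in the atrium proper, with a log2 difference of 4.53 ± 1.26 (SE, n = 3 hearts, adjusted p = 0.717 in the quasi-likelihood model). The other FZD7 row had 270, 600 and 255 reads and a log2 difference of 3.41 ± 1.74. Between the SA region and the rest of the heart, the log2 difference was only 0.52 ± 1.11 for the larger row. For the other row it was 0.67 ± 1.44 (SE, n = 3 hearts). Neither row passed there (adjusted p = 0.793 and 0.792 in the quasi-likelihood model). FZD2, another Frizzled receptor, had 275, 302 and 86 reads, with a log2 difference of 1.22 ± 2.01 between the SA region and the atrium proper and of -0.77 ± 1.64 between the SA region and the rest of the heart (SE, n = 3 hearts), and passed neither test (adjusted p = 0.973 and 0.808 in the quasi-likelihood model). LRP5, a Wnt co-receptor, had 281, 354 and 218 reads, and ROR2, a receptor of the branch without beta-catenin, had 290, 340 and 171.

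In the destruction complex list, CTNNB1, which matches beta-catenin itself, had 1994, 1881 and 2280 reads and a log2 difference between atrium and ventricle of -0.44 ± 0.55 (SE, n = 3 hearts, adjusted p = 0.852 in the quasi-likelihood model). The second beta-catenin gene, ctnnb2, had 331, 610 and 299 reads, and CSNK1D, casein kinase 1 delta, had 280, 318 and 437. The ligand side was led by WLS, which carries Wnt ligands to the cell surface, with 987, 841 and 917 reads, before the ligand WNT11 with 222, 118 and 395 and the ligand WNT2B with 120, 136 and 85. RSPO2, a secreted protein that strengthens Wnt signaling, had 293, 20 and 107 reads and none in the atrium of any heart, against 0.533, 0.198 and 0.802 per 10000 in the ventricle. Of the 4220 genes tested there, 85 had no read in 1 of the 2 regions over all hearts. Of the nuclear and Dishevelled factors pygo2 had 148, 535 and 308 reads, dvl2 had 314, 362 and 223, TCF7L1 had 222, 199 and 40, and CTNNBIP1 had 249, 158 and 52. Of the targets, a row matching MYC had 258, 350 and 622 reads, with no read in the SA region of any heart. This MYC row also had none in the atrium proper of hearts 1 and 2 and in the ventricle of heart 2. Of the 6225 genes tested between the SA region and the rest, 833 had no read on 1 of the 2 sides. NKD1, an inhibitor that Wnt signaling induces, had 110, 218 and 278 reads.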

How the data were processed

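Per the labels and the paper, CEL-seq libraries of single sections were sequenced and mapped to Zv9, and BWA 0.6.2 is among the tools in the submitters' processing notes. The deposited values are raw read counts, 1 table per heart with a row per gene and a column per section, and are not normalized. Each table has 96 columns; 171 columns over the 3 tables hold no section of the heart according to the labels and were not used. For heart 1, columns 17 to 24 were reversed, as its label asks. Spike-in rows were left out. Of 16023 gene rows, 12905 had a symbol in the reference table, many of them the symbol of a human gene. No sequence or coordinate was used here.

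The members and gene lists were chosen with earlier results of these data known. Named genes are the 3 members, list genes past a test and up to 4 genes per list with the most reads. FZD2 lies outside this rule and was added after its values were seen. Levels are reads per 10000 gene reads. For heart 1 the SA region, the AV canal, the whole atrium and the whole ventricle follow the windows of the paper, which overlap. The atrium proper and the ventricle proper are its atrium and ventricle without the sections shared with the SA region or the AV canal. These 2 regions and the venous end were set for this work. The plan named read-weighted medians of vmhc and myh6 for placing hearts 2 and 3; they were weighted by reads per 10000 gene reads, since raw-read weights gave a ventricle proper of heart 2 with heart muscle markers at 10.9 per 10000, against 231 with the weights used. This choice was made after the marker levels were seen.

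Reads were summed per region and heart, with the heart as replicate and as block, because both regions come from the same animal. The tests of edgeR and DESeq2, which the plan named, were not run, since the unit check used for this work did not recognise the tables as counts. A quasi-likelihood count model written for this work in Python 3.11.15 with numpy 2.4.6 took their place: TMM factors, a common dispersion, Pearson residual variances squeezed toward a trend by limma 3.58.1 in R 4.3.3, and Benjamini-Hochberg adjustment over all genes tested, with at least 15 reads in total and about 10 reads at the median depth in at least 3 sums. It was also run on simulated data, but the outcome is not given here, so a gene that did not pass need not be unchanged. Alternatives were other factors, no filter, deep sections only, moved borders, each heart left out, no block, raw-read placing and limma voom.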

Additional observations from a re-analysis of the deposited data

How the results depend on the processing

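The call of apcdd1l as higher in the atrium than in the ventricle had the same direction in all 12 alternatives and kept its side of the threshold in 5 of them. The SA comparisons carried no call for the 3 genes in any alternative, and their direction turned in several. With 1 heart left out, the log2 difference for the SA region against the rest of the heart was -2.02 to 1.70 for fzd9b and -2.01 to 1.66 for apcdd1l. Against the atrium proper it was -3.59 to 1.65 for fzd9b and -0.011 to 1.96 for csnk1a1, and csnk1a1 between atrium and ventricle was at -0.14 to 0.63. With spike-in scaling the difference against the rest turned to -1.49 for fzd9b and -1.23 for apcdd1l, and csnk1a1 between atrium and ventricle to -1.17. That scaling moved all genes together, with a median against the rest of -3.45 in place of -2.06. The 3 genes lay above the median in both of these comparisons with either scaling, so relative to the median they did not turn with it. For genes chosen with these hearts known, that standing is a description only. Against the rest, that standing was lost for csnk1a1 without a filter, for fzd9b without heart 1 and for apcdd1l without heart 2. Without shallow sections fzd9b against the rest was at -2.04. Borders moved toward the inflow end gave -0.13 for fzd9b and -0.95 for apcdd1l against the rest. Raw-read placing, an alternative chosen after seeing the data, as was limma voom, gave 1.184 for apcdd1l against the atrium proper, 0.60 for csnk1a1 against the rest and -0.28 for csnk1a1 between atrium and ventricle. The cause was not tested.

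Counts of genes called followed the settings. Between the SA region and the atrium proper the count was 0, and it was 9 with median-of-ratios factors (6 higher), 2 without a filter, 9 with borders moved toward the inflow end, 25 without the replicate block, 13 with raw-read placing, 1 with limma voom and 0 to 8 with 1 heart left out, 8 of them without heart 3. Against the rest of the heart it was 8, and 5 with median-of-ratios factors and without shallow sections, 1380 with spike-in scaling, 29 with borders moved toward the inflow end, 977 without the replicate block, 74 with raw-read placing, 3 with limma voom and 1 to 104 with 1 heart left out, 104 of them without heart 3. Between atrium and ventricle it was 52 (25.0% higher), and 746 with spike-in scaling (0.938% higher), 29 and 90 with borders moved toward the outflow and the inflow end, 152 without the replicate block, 27 with raw-read placing (40.7% higher), 24 with limma voom, 42 with median-of-ratios factors (35.7% higher) and 23 to 42 with 1 heart left out. Spike-in scaling moved the median log2 difference of all genes between atrium and ventricle to -2.10, against -0.57, and apcdd1l lay above that median under both. The Wald test of DESeq2 was not run. Of 264 levels of a gene in a region and heart recomputed under 5 alternatives, 65 left the counting limits of the reported level.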
